A study of Mus musculus with 12 samples.

Results

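The genes described here encode the subunits of the proteasome. They were taken from the table of exonic read counts by symbol: the alpha and beta subunits of the core particle (Psma and Psmb genes), the ATPases and other subunits of the regulatory cap (Psmc and Psmd genes) and the activators Psme1 to Psme4. Psmb8, Psmb9 and Psmb10, the catalytic subunits of the immunoproteasome, were left out by that choice and are given only for comparison. The choice found 40 genes of 38087 in the table, 16 of the 20S core, 20 of the 19S cap and 4 activators. A filter on low counts left 39 of them among 14235 tested genes.

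Livers came from male C57BL/6j mice, 13 to 16 weeks old, all of them germ-free, that is, without any microorganisms. Mice of 1 group received subcutaneous recombinant human growth hormone (GH) at 50 µg per mouse, and those of the other received phosphate-buffered saline (PBS). Over 5 days there were 2 daily injections, the first at ZT 2 and the second at ZT 14, where ZT counts the hours from lights on. The liver samples are labelled ZT 2. Each group had 6 libraries of total RNA depleted of ribosomal RNA, with 19523104 to 23278931 counts each. The labels do not state that numbered samples are separate animals, and the p-values below reflect variation among libraries, which may be technical.

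The proteasome is the protease that breaks down proteins tagged with ubiquitin. Its barrel-shaped 20S core holds the proteolytic sites on the inner face of the beta rings, and the alpha rings gate the entry. The 19S cap binds ubiquitin chains, removes them, and unfolds and threads the substrate with a ring of ATPases. Activators of the Psme family open the core without the 19S cap. Cells that lose proteasome activity raise the subunit genes together through the transcription factor NFE2L1, and interferon-gamma replaces catalytic subunits by those of the immunoproteasome. GH favours protein synthesis in many tissues, and its effect on liver is carried largely by STAT5B.

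GH and PBS livers differed little in proteasome mRNA. With edgeR's quasi-likelihood test 1 of 39 tested members, the ATPase gene Psmc6, was lower in GH at a Benjamini-Hochberg adjusted p under 0.05, and none was higher. Over all tested genes the share called was 4.79%, made up of 2.52% lower and 2.27% higher in GH, so 1 of 39 (2.56%) is about the background. At an unadjusted p under 0.05 there were 8 members, all lower, or 20.5% of the 39, against 9.83% of all tested genes lower and 9.15% higher. DESeq2 called Psmc5 and Psmc6, and limma-voom called Psmc6. The sign was shared by most members: 31 of 39 had a log2 fold change (GH minus PBS) below 0, against 49.9% of all tested genes. Members can be low together in a library, as in PBS replicate 2 and GH replicate 6, so these signs are not independent. The sizes were small, with a median of -0.07 against 0.00 over all tested genes. Between libraries the median log2 counts-per-million had an SD of 0.072 (20S core), 0.065 (19S cap) and 0.061 (activators), about as large as this shift. That SD is a spread of single libraries. It is not the error of a difference between groups of 6 libraries, which was not computed. Leaving out GH replicate 6 and PBS replicate 5 together brought the members' median to -0.03. Without the 2 low libraries, PBS replicate 2 and GH replicate 6, it was -0.09, with 31 of 39 members below 0. It was -0.10 without PBS replicate 2 alone and -0.05 without GH replicate 6 alone. Scaling libraries by their totals alone brought it to -0.13, with all tested genes at -0.06. The counts do not tell apart a smaller share of cells expressing a gene from less RNA per cell.

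The precision of single genes was high for most members, which does not carry over to a shift that members share. Among the tested members other than Psma8 the 95% intervals of the log2 fold change reached from -0.39 at the lowest bound (Psmc6) to 0.36 at the highest (Psmd9), and the median standard error was 0.066, against 0.119 over all tested genes. The median coefficient of variation of counts-per-million (CPM, scaled by TMM) between PBS libraries was 6.72% for the members and 14.95% for all tested genes. In GH it was 7.33% and 13.0%. The members also had more counts, with a median of 62.4 CPM in PBS against 11.4 for all tested genes, and the part of depth in this difference was not tested.

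**Figure D1:**
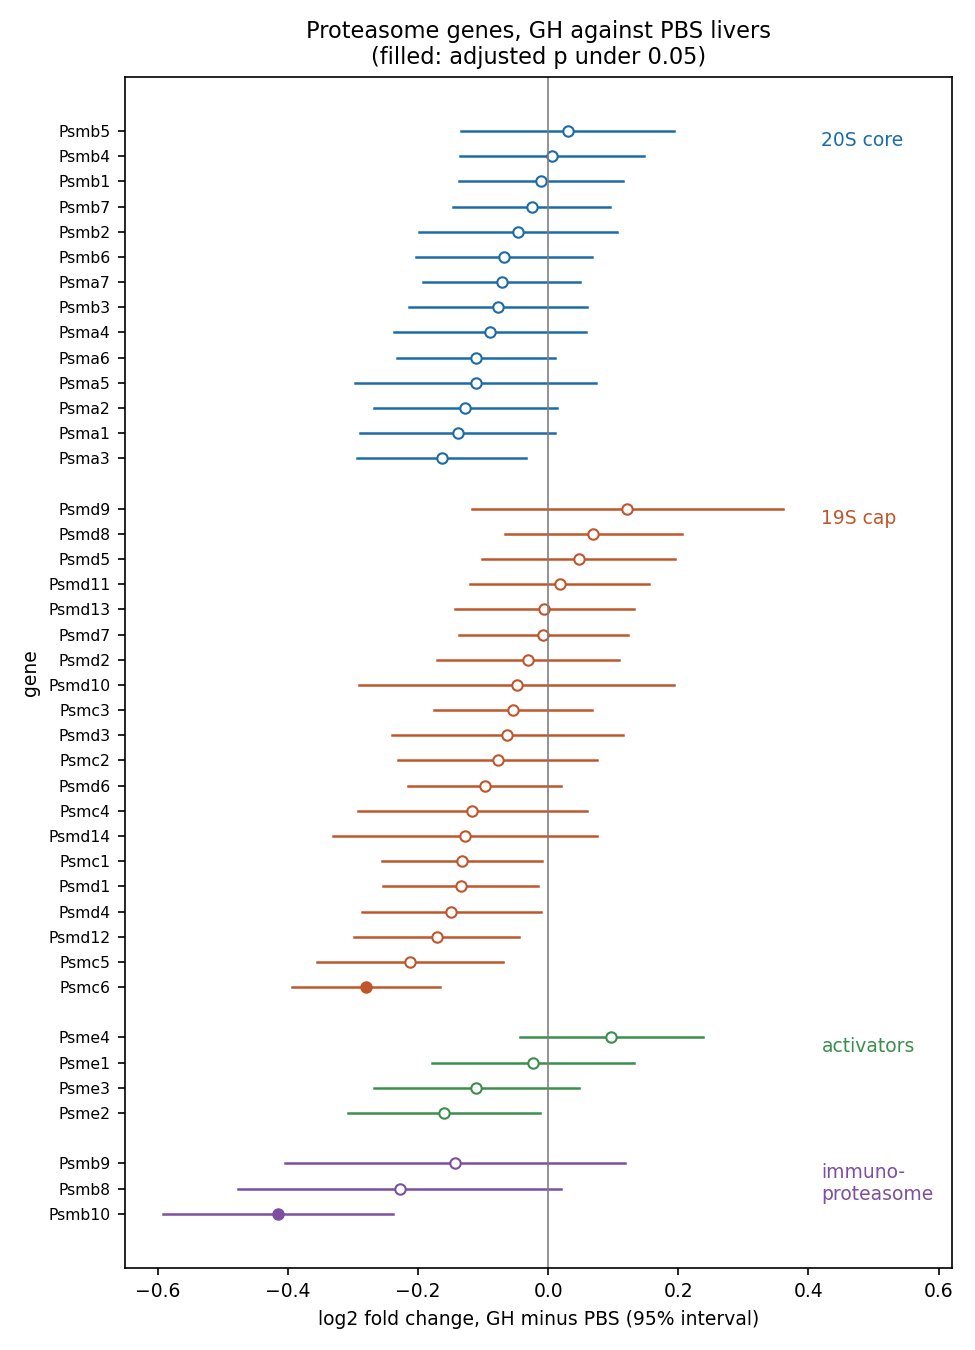
Log2 fold change (GH minus PBS, x axis) with its 95% interval for the 38 tested members other than Psma8, and for the immunoproteasome genes Psmb8, Psmb9 and Psmb10, n = 6 libraries per group. Filled points passed an adjusted p of 0.05 (Psmc6 and Psmb10), and most other intervals cross 0.

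Levels were compared between genes per kilobase of exonic length. In PBS livers the 14 core subunits of the ordinary proteasome lay between 15.4 (Psma3) and 56.5 CPM per kilobase (Psma6), with a median of 28.0. The 17 subunits of the finished 19S cap lay between 9.78 (Psmd11) and 43.7 (Psmc1), with a median of 23.1. These lengths join all annotated exons. With the longest annotated transcript as the length, the medians were 52.0 and 34.9, the core ran from 21.0 to 94.1 and the order of genes changed. The 3 chaperones of 19S assembly stood lower, Psmd10 at 4.95, Psmd9 at 4.75 and Psmd5 at 4.51 CPM per kilobase, whose spreads of 0.684, 0.544 and 0.258 (SD, n = 6) are larger than the gaps between neighbours in this order. With the longest transcript the order changed, to 13.1 for Psmd9 (SD 1.497), 7.42 for Psmd5 (SD 0.424) and 5.09 for Psmd10 (SD 0.703), with gaps larger than these spreads. Among activators Psme1 had 29.5, Psme4 22.5, Psme2 16.6 and Psme3 11.7 CPM per kilobase. With the longest transcript Psme2, at 30.5 (SD 2.23), came before Psme4, at 29.0 (SD 2.04), a gap smaller than their spreads. The testis-type subunit Psma8 had 5 to 48 counts per library, and the thymus-type subunit Psmb11 had 0 counts in all 12 libraries, which allows up to 0.0117 CPM over the 12 libraries together (3 counts of their summed total, counting error only).

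**Figure D2:**
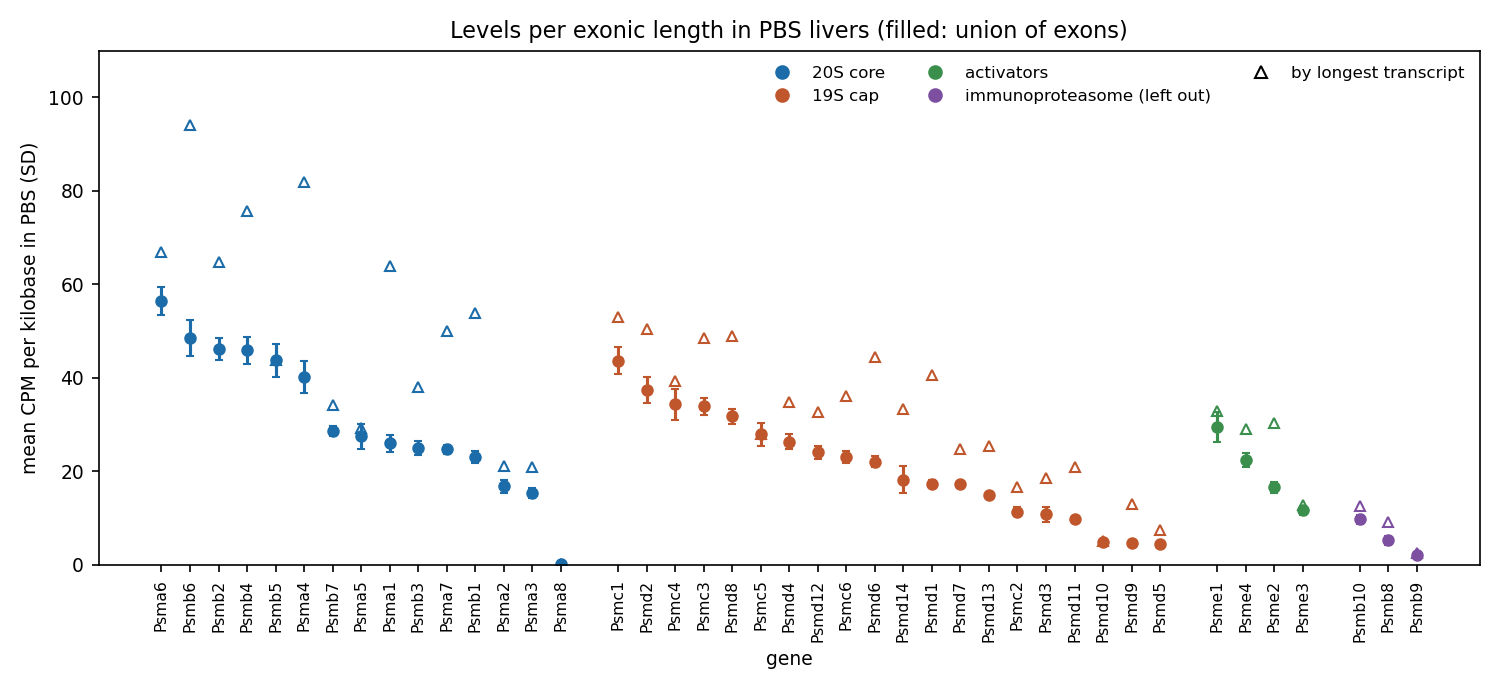
Mean CPM per kilobase of exonic length in PBS livers (y axis; bars, SD over 6 libraries) for each gene (x axis), with filled points for the union of exons and triangles for the longest transcript. Core genes such as Psma6 and Psmb6 stand highest, and among filled points the assembly chaperones, Psma8 and the immunoproteasome genes are the lowest.

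The 20S and 19S sums stood in much the same proportion in both groups. The summed CPM of the 20S core was 921 to 1046 (median 1028) in PBS and 884 to 1033 (median 964) in GH. That of the 19S cap was 1220 to 1393 (median 1346) in PBS and 1183 to 1350 (median 1246) in GH. The groups overlapped in both sums, PBS replicate 2 was the lowest PBS library and GH replicate 6 the lowest GH library in both, and only GH replicate 6 lay below the lowest PBS library. The ratio of the 19S sum to the 20S sum averaged 1.31 in the PBS livers (SD 0.0275, n = 6) and 1.30 in the GH livers (SD 0.0197, n = 6). The activator sum was 293 to 339 in PBS and 299 to 335 in GH, and relative to the core it was 0.313 ± 0.0170 in PBS and 0.335 ± 0.0113 in GH, with overlapping values. All 40 members together made up 0.266 ± 0.0110% of scaled counts in PBS and 0.255 ± 0.0122% in GH. Sums weigh abundant genes most, and Psme4 alone had 188 ± 13.3 CPM in PBS.

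**Figure D3:**
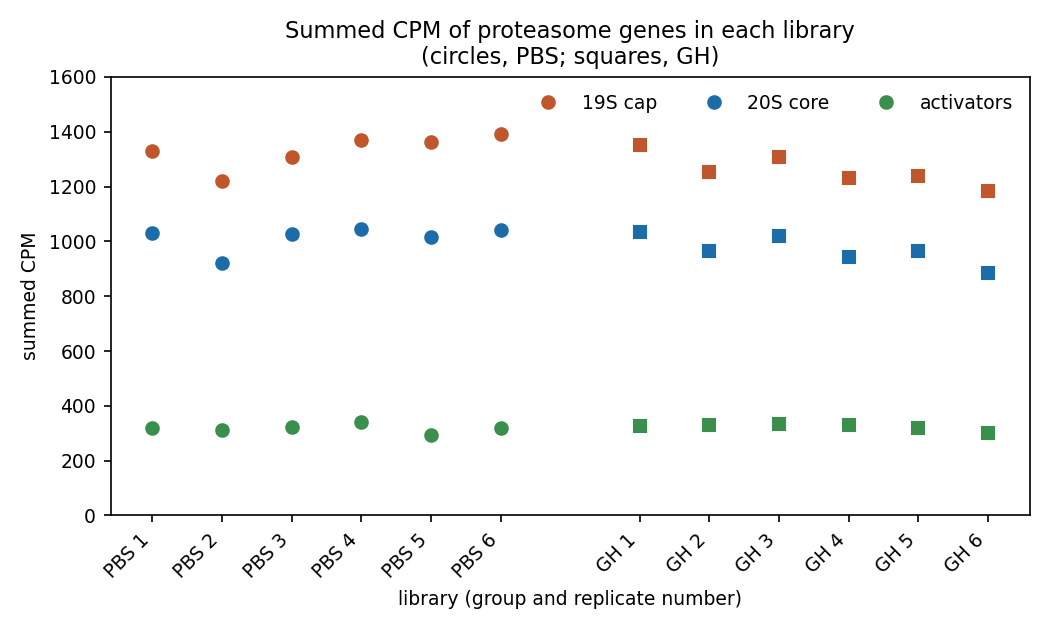
Summed CPM (y axis) of the 19S cap, 20S core and activator genes in each library (x axis; circles, PBS; squares, GH). PBS replicate 2 and GH replicate 6 hold the lowest sums of the 20S core and 19S cap in their groups, and the groups overlap.

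The 20S core had 15 tested members, none of which passed in edgeR, DESeq2 or limma-voom, and 1 had an unadjusted p under 0.05 in each. Their median log2 fold change was -0.07, and 12 of 15 lay below 0. The 7 ordinary alpha subunits, which form the gated outer rings, all lay below 0, from -0.16 (Psma3) to -0.07 (Psma7). Psma3 had 55.8 to 65.5 CPM (median 59.1) in PBS and 48.6 to 57.5 (median 53.4) in GH. In 5 of 6 GH libraries it was below the lowest PBS library, and the groups overlapped (log2 fold change -0.16 ± 0.06, SE; edgeR adjusted p = 0.152). Psma1 had 69.0 to 84.7 CPM (median 77.4) in PBS and 62.2 to 76.9 (median 70.2) in GH (adjusted p = 0.305). Psma6 had 64.4 to 73.4 CPM (median 71.2) in PBS and 60.0 to 69.1 (median 64.5) in GH (adjusted p = 0.314). Psma2 had 52.9 to 67.6 CPM (median 62.2) in PBS and 51.6 to 61.0 (median 56.8) in GH (adjusted p = 0.322). In each of these 4 alpha genes the PBS median was above every GH value. In Psma4, Psma5 and Psma7 it was not, with PBS medians of 94.88, 37.19 and 76.45 CPM and highest GH values of 96.88, 38.25 and 80.32. Psma8, whose log2 fold change was 0.76, had a 95% interval from -0.36 to 1.87, which does not place it. Its coefficient of variation between libraries was 60.6% in PBS and 79.6% in GH. Without GH replicate 3, which held its highest value, the log2 fold change was 0.28.

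The 7 beta subunits had log2 fold changes from -0.08 to 0.03, and the 3 that carry the proteolytic sites were among them. Psmb5, the chymotrypsin-like subunit and the main target of proteasome inhibitor drugs (chromosome 14, 54614119 to 54618022), had 34.6 to 43.7 CPM (median 39.1) in PBS and 36.4 to 46.3 (median 38.5) in GH. Its log2 fold change was 0.03, with a 95% interval from -0.13 to 0.19. Psmb6, the caspase-like subunit, had 77.8 to 97.6 CPM (median 91.9) in PBS and 81.8 to 92.2 (median 87.2) in GH, with an interval from -0.20 to 0.07. Psmb7, the trypsin-like subunit, had 93.9 to 104 CPM (median 97.0) in PBS and 88.2 to 105 (median 95.4) in GH, with an interval from -0.15 to 0.10. None of the intervals of the beta subunits went beyond -0.21 or 0.19. Psmb5 shares exonic bases with the microRNA gene Mir686 on the same strand. Transcripts of Psmb7 and of Nek6, an overlapping gene on the opposite strand, share 255 identical bases.

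The 19S cap held the called member. Of its 20 tested members 1 fell and none rose in edgeR, beside 4.79% of all tested genes called. An unadjusted p under 0.05 was seen for 6, all lower, beside 9.83% of all tested genes lower and 9.15% higher. Of the 20 members 16 lay below 0, with a median of -0.07. This median of all 20 was -0.04 without PBS replicate 5 and -0.11 without PBS replicate 2. Over the 17 members other than the assembly chaperones it was -0.10. All 6 ATPases, which form the unfolding ring at the base of the cap, had log2 fold changes below 0, from -0.28 to -0.05.

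Psmc6 (ENSMUSG00000021832, chromosome 14, 45329788 to 45349705, plus strand) encodes 1 of these ATPases. It had 74.4 to 87.6 CPM (median 80.9) in PBS and 64.9 to 69.7 (median 65.7) in GH. Every GH library lay below every PBS library, which among the members was seen for Psmc6 alone (3.18% of all tested genes had groups that did not overlap, 1.72% lower in GH). Psmc6 fell by 0.28 in log2 units, with a standard error of 0.05 over 6 libraries per group (edgeR adjusted p = 0.00695), or 17.6%. The call held in all 23 alternatives, with adjusted p from 1.08e-05 to 0.0309. No annotated transcript of another gene matched Psmc6 at 95% identity over at least 200 bases.

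Psmc5, another ATPase, had 34.5 to 43.4 CPM (median 39.0) in PBS and 31.4 to 35.1 (median 34.2) in GH. Its values overlapped between groups, with 3 GH libraries below the lowest PBS library (log2 fold change -0.21 ± 0.07; edgeR adjusted p = 0.0882). It passed in DESeq2 (adjusted p = 0.0475), with library totals alone (0.0245), without PBS replicate 2 (0.0387) and without PBS replicate 2 and GH replicate 6 together (0.0428), over a range of 0.0245 to 0.183. Psmc1 had 73.0 to 87.6 CPM (median 86.7) in PBS and 73.2 to 78.8 (median 77.4) in GH (adjusted p = 0.224). Its lowest PBS value, that of replicate 2, was below every GH value, and the other 5 PBS values were above every GH value. The log2 fold change was -0.08 for Psmc2, -0.05 for Psmc3 and -0.12 for Psmc4, and their adjusted p lay between 0.491 and 0.673.

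**Figure D4:**
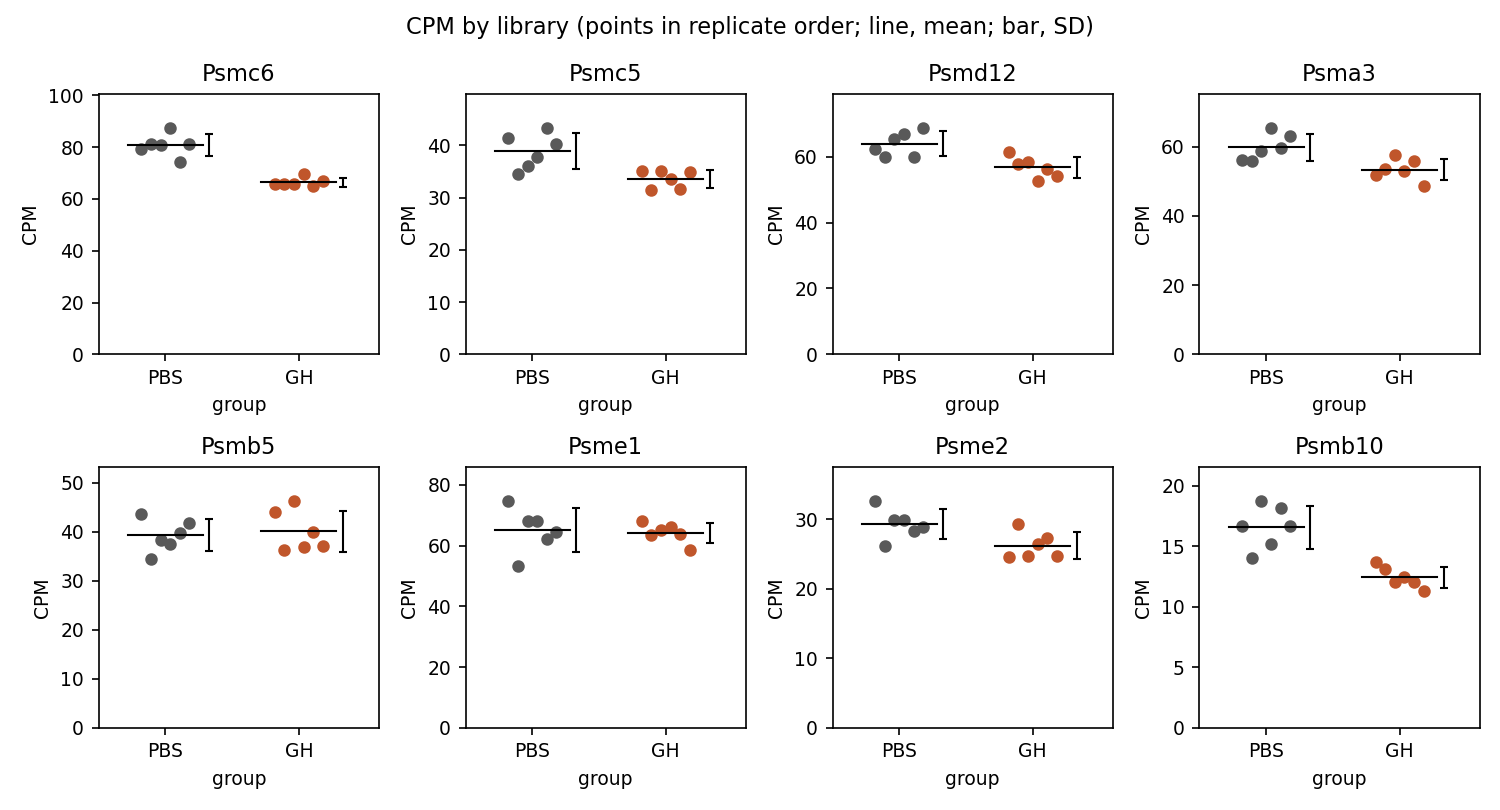
CPM in each library (points, in replicate order; line, mean; bar, SD, n = 6) for 8 proteasome genes. Psmc6 and Psmb10 are the 2 genes whose groups do not overlap, while Psmb5 and Psme1 overlap throughout.

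The non-ATPase subunits of the base, scaffolds and ubiquitin receptors, also lay below 0. Psmd1 had 118 to 131 CPM (median 129) in PBS and 109 to 124 (median 114) in GH, with 5 GH libraries below the lowest PBS library (adjusted p = 0.199). Psmd1 shares exonic bases with Gm21972 on the same strand. Psmd4, a ubiquitin receptor, had 67.2 to 80.0 CPM (median 73.3) in PBS and 61.4 to 74.3 (median 66.6) in GH (adjusted p = 0.221). Psmd2 had a log2 fold change of -0.03, with an interval from -0.17 to 0.11. Among the 8 lid subunits the median was -0.04, none passed in edgeR, DESeq2 or limma-voom, and 1 had an unadjusted p under 0.05. That was Psmd12, with 59.9 to 68.8 CPM (median 64.0) in PBS and 52.5 to 61.4 (median 57.1) in GH (log2 fold change -0.17; adjusted p = 0.121). Psmd6 had 57.2 to 65.0 CPM (median 62.8) in PBS and 54.8 to 60.2 (median 57.2) in GH (adjusted p = 0.368). Psmd14, the deubiquitinase that removes ubiquitin chains from substrates, had a log2 fold change of -0.13 with an interval from -0.33 to 0.07. Psmd7, Psmd8, Psmd11 and Psmd13 lay between -0.01 and 0.07. The assembly chaperones Psmd5, Psmd9 and Psmd10 had log2 fold changes of 0.05, 0.12 and -0.05, and GH replicate 5 held the highest Psmd9 value, at 50.2 CPM.

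The 4 activators had a median of -0.07, and none passed in edgeR, DESeq2 or limma-voom (1 with an unadjusted p under 0.05 in each). Psme1 and Psme2 encode the chains of PA28, an activator tied to antigen processing, and lie near each other on chromosome 14 (55578123 to 55581529 and 55587441 to 55591113). Psme1 had 53.4 to 74.7 CPM (median 66.3) in PBS and 58.5 to 68.1 (median 64.4) in GH, and its log2 fold change of -0.02 had an interval from -0.18 to 0.13. Psme2 had 26.1 to 32.7 CPM (median 29.4) in PBS and 24.5 to 29.4 (median 25.7) in GH (log2 fold change -0.16; adjusted p = 0.221). No GH value of Psme2 was above the PBS median, while the groups overlapped. Psme3, the nuclear relative, had 29.8 to 37.9 CPM (median 34.3) in PBS and 29.9 to 37.6 (median 30.9) in GH (adjusted p = 0.462). Psme4, which encodes PA200, was the activator with a value above 0, with 166 to 203 CPM (median 190) in PBS and 185 to 214 (median 206) in GH (log2 fold change 0.10; adjusted p = 0.469).

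Some members have near-identical copies elsewhere in the genome, so their reads may have been divided. Gm13835, which matched Psma3 over 665 bases without a mismatch, had 13347 counts over the 12 libraries, 92.3% of the 14456 of Psma3. Psme2b-ps, which matched Psme2 at 99.4% identity over 794 bases, had 60.4% of the counts of Psme2. With the counts of 13 such copies added to their 8 members, the log2 fold change of Psma3 was -0.13 (adjusted p = 0.277), that of Psme2 was -0.14 (0.276), and Psmc6 was again the 1 member called. The low levels per kilobase of Psma3 and Psme2 are counts without these copies.

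The immunoproteasome genes, left out of the counts above, are the natural comparison for the catalytic subunits, since each takes the place of 1 of them. Psmb10, which replaces Psmb7 (chromosome 8, 105935735 to 105938444), had 14.0 to 18.8 CPM (median 16.7) in PBS and 11.3 to 13.7 (median 12.3) in GH. The groups did not overlap, and Psmb10 fell by 0.41 in log2 units, with a standard error of 0.08 over 6 libraries per group (edgeR adjusted p = 0.00894), a call that held in all 23 alternatives (0.000331 to 0.0475). Psmb8 had 12.5 to 21.7 CPM (median 18.4) in PBS and 13.8 to 16.8 (median 14.7) in GH (adjusted p = 0.311). Psmb9 had 5.99 to 9.22 CPM (median 7.18) in PBS and 5.76 to 7.65 (median 6.69) in GH (adjusted p = 0.582). Psmb9 shares exonic bases with Tap1 on the opposite strand. Per kilobase, Psmb10 made up 22.8 to 27.7% of Psmb10 and Psmb7 together in PBS and 19.7 to 21.4% in GH, without overlap. Psmb8 made up 8.51 to 12.5% of Psmb8 and Psmb5 in PBS and 7.78 to 10.7% in GH. Psmb9 made up 3.05 to 4.90% of Psmb9 and Psmb6 in PBS and 3.48 to 4.17% in GH. These shares use the union of exons. With the longest transcript Psmb8 made up 14.2 to 20.2% in PBS and 13.0 to 17.5% in GH. On that length the mean share of Psmb9 in PBS was 2.67%, against 4.02% by the union, and that of Psmb10 was 26.9% in PBS and 21.99% in GH, again without overlap. The shares are descriptions without a test, and whether the fold changes of Psmb10 and Psmb7 differ was not tested.

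**Figure D5:**
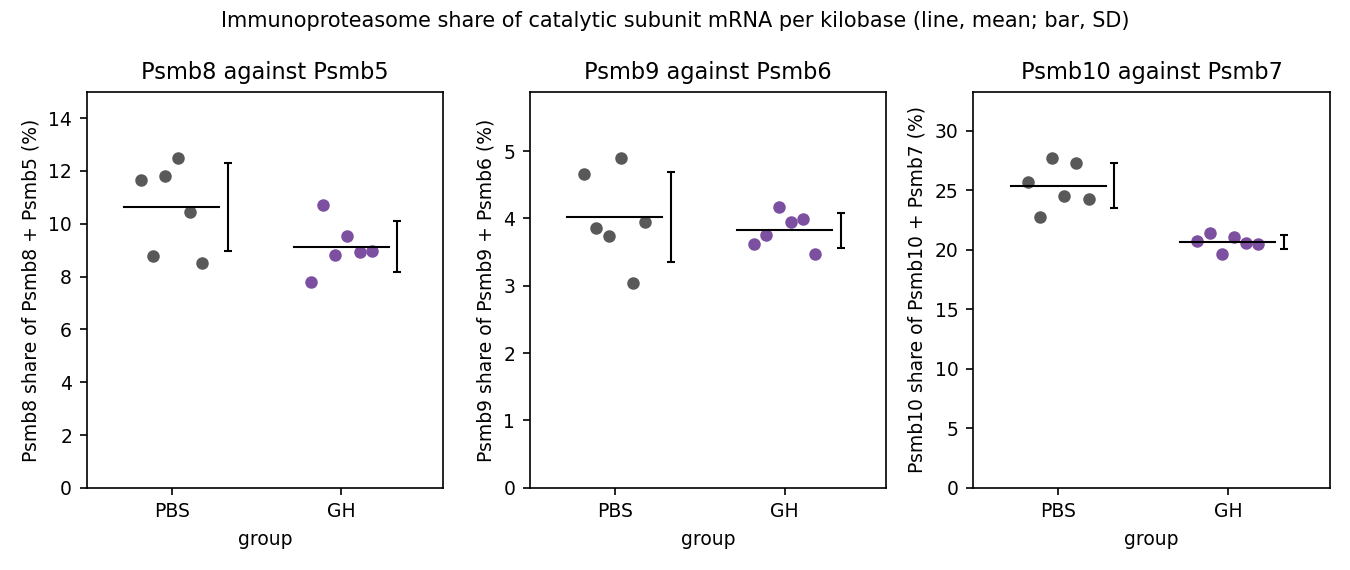
Share (y axis, %) of each immunoproteasome gene in the sum with the catalytic gene it replaces, per kilobase of exonic length, in each library (points, in replicate order; line, mean; bar, SD, n = 6 per group). The groups separate for Psmb10 and overlap for Psmb8 and Psmb9.

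Genes around the proteasome were described in the same fit, in which 4.79% of all tested genes were called. At an unadjusted p under 0.05 in that fit 9.83% were lower and 9.15% higher. Of 13 assembly factors and other proteasome-associated genes none passed in edgeR, DESeq2 or limma-voom, with a median of 0.01 and 1 unadjusted p under 0.05 in edgeR. That was Adrm1, the ubiquitin receptor of the cap, at -0.22 (adjusted p = 0.0921; 0.0320 with library totals alone and 0.0461 without PBS replicate 2). The assembly chaperone Pomp had a log2 fold change of 0.00. None of 4 ubiquitin genes passed in any of the 3 tools (0 unadjusted). Of 10 shuttle and unfoldase genes none passed in edgeR (3 unadjusted), and DESeq2 called Ubqln4, a shuttle factor, lower. Vcp, the unfoldase that feeds the proteasome, had a log2 fold change of -0.11. Of 14 genes of autophagy and the lysosome none passed in the 3 tools (2 unadjusted in edgeR), with a median of 0.05. None of 6 genes of ubiquitin activation and ligation passed (0 unadjusted).

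Among 10 genes that control proteasome transcription 1 fell, none rose and the median was -0.07. Over all tested genes 4.79% were called and 3.18% had groups that did not overlap. At an unadjusted p under 0.05 in edgeR, 9.83% of all tested genes were lower and 9.15% higher. An unadjusted p under 0.05 in edgeR was seen for 3. These were Nfe2l2, Nfyb at -0.24 (edgeR adjusted p = 0.168) and Nrf1, a separate gene from Nfe2l1, at -0.21 (0.217). Nfe2l2, which encodes the oxidative stress factor NRF2, had 48.9 to 57.6 CPM (median 53.5) in PBS and 39.1 to 48.1 (median 44.2) in GH, without overlap. It fell by 0.29 in log2 units, with a standard error of 0.07 over 6 libraries per group (edgeR adjusted p = 0.0200). The call was lost without PBS replicate 3 (0.0505), PBS replicate 6 (0.0506) or GH replicate 4 (0.0509), and the adjusted p over the alternatives ran from 0.00245 to 0.0509. Nfe2l1, the factor of the response to proteasome loss, had 66.8 to 90.8 CPM (median 85.7) in PBS and 69.4 to 90.0 (median 77.6) in GH (log2 fold change -0.03; adjusted p = 0.893).

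NFE2L1 and NFE2L2 bind the antioxidant response element, and its core TGACNNNGC was searched on both strands in the promoters of the members, 250 bases before to 50 after the start site, from RefSeq (GRCm38.p6). A promoter was found for 33 members, and Psmc3, Psmd3, Psmd7, Psma8, Psmb1, Psmb2 and Psmb7 had no entry. The core was present for 6 of the 33 (18.2%), against 14.0% of all 27025 symbols with a promoter in the same table. The matches are shown with 10 bases on either side where the window allows, read 5′ to 3′ on the strand of the match, with the match in capitals, because they include Psmc6 and the catalytic genes Psmb5 and Psmb6.
Psmc6 (chr14:45329587-45329615, minus strand): gagcaatgccTGACTTAGCtactggctgg
Psmb5 (chr14:54618024-54618052, minus strand): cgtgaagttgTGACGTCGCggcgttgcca
Psmb6 (chr11:70525338-70525366, plus strand): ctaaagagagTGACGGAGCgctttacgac
Psmd12 (chr11:107479278-107479299, minus strand): ggggcaaatgTGACACAGCaga
Psmd9 (chr5:123228149-123228177, plus strand): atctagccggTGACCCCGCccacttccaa
Psme4 (chr11:30771758-30771786, minus strand): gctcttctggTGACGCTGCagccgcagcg
Members with the core had log2 fold changes on both sides of 0, from -0.28 (Psmc6) and -0.17 (Psmd12) to 0.10 (Psme4) and 0.12 (Psmd9). The matches of Psmd12 and Psmc6 lie near the outer end of the window, far from the start site, and those of Psmb5, Psmb6, Psmd9 and Psme4 are close to it.

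The upstream part of the Psmc6 promoter, from 250 to 51 bases before the RefSeq start site (GRCm38.p6, chr14:45329574-45329773, plus strand), is shown because Psmc6 was the called member. Capitals mark the same match read on the plus strand.
Psmc6: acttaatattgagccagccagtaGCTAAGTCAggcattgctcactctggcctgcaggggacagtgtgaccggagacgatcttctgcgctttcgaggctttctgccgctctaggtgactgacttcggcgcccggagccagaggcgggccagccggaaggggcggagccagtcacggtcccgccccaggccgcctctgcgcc
The CCAAT motif was present on either strand for 13 of 33 members (39.4%), against 41.1% of symbols. The interferon response core, GAAA and again GAAA with any 2 bases between them on either strand, was present for 4 of 33 (12.1%), Psmb3, Psmd4, Psmd9 and Psme1, against 3.99% of symbols. Psmd9 held both this core and TGACNNNGC, and Psmb3 and Psmd4 both this core and CCAAT. A match is a description of these letters and not a bound site.

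Of 19 genes of MHC class I presentation and the interferon-gamma response 1 fell and none rose in edgeR, with a median of -0.16 and 9 unadjusted p under 0.05. Over all tested genes 4.79% were called, and at an unadjusted p under 0.05 the shares were 9.83% lower and 9.15% higher. Igtp, an interferon-gamma-induced GTPase, had 17.3 to 27.5 CPM (median 26.5) in PBS and 8.28 to 12.7 (median 10.4) in GH, and it fell by 1.23 ± 0.13 (SE, n = 6; edgeR adjusted p = 3.35e-05). The class I genes H2-K1 and H2-D1 had log2 fold changes of 0.09 and 0.13, their light chain B2m -0.05 and the peptide-loading factor Tapbp -0.03, with adjusted p from 0.425 to 0.912. The list also holds MHC class II genes, of which H2-Aa, H2-Ab1, H2-Eb1 and the invariant chain Cd74 lay at -0.63, -0.65, -0.63 and -0.54, with adjusted p from 0.215 to 0.272. Nlrc5, a transactivator of class I genes, and Tap1, a chain of the peptide transporter, lay at -0.16 and -0.15. These genes were named after their values were seen.

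Markers of other cells were read beside these results. Over all tested genes edgeR called 4.79%, and at an unadjusted p under 0.05 the shares were 9.83% lower and 9.15% higher. The 10 hepatocyte markers summed to 131600 to 153300 CPM in PBS and 120000 to 142500 in GH, and none passed in edgeR (4 unadjusted; DESeq2 called Apob higher and Alb and Cps1 lower). Of 11 Kupffer cell and macrophage markers none passed in the 3 tools (2 unadjusted in edgeR), with sums of 291 to 444 CPM in PBS and 303 to 391 in GH. Of 4 tested lymphocyte markers none passed (1 unadjusted), and all 12 listed lymphocyte markers, tested or not, summed to 16.2 to 24.5 CPM in PBS and 17.6 to 21.6 in GH. None of 3 dendritic cell and monocyte markers (0 unadjusted), 1 neutrophil marker (0 unadjusted) and 7 sinusoidal endothelium markers (1 unadjusted) passed in the 3 tools, and of 5 cholangiocyte markers none passed in edgeR (1 unadjusted) while DESeq2 called Sox9 higher. Of 7 stellate cell and fibroblast markers 1 fell, Dcn, by 0.38 (edgeR adjusted p = 0.00296), with sums of 362 to 418 and 336 to 400 CPM. Of 3 erythroid markers 1 rose, Alas2, by 1.14 (edgeR adjusted p = 0.00302). The erythroid sum was 59.0 to 191 CPM in PBS and 174 to 270 in GH. On average Alas2 was the largest part of it, with means of 77.6 CPM in PBS and 171 in GH. Hba-a1 and Hba-a2 had log2 fold changes of 0.54 and 0.62, with edgeR adjusted p of 0.733 and 0.707. No marker in the table was at 0 in all libraries. The part of these cell types in the values of Psmc6, Psmb10 and the other genes was not tested.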

How the data were processed

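Total RNA libraries of liver, 6 per group, were read from the 1 deposited table. The stranded kit took 250 ng of RNA depleted of ribosomal RNA, per the labels' protocols. The authors deposited raw counts of exonic reads per gene. The submitters' processing notes name STAR 2.4.0i and mm10. Which program counted the reads, with what annotation, and how it handled strand and multi-mapping reads, was not given in the sources used here. Groups were taken from the sample titles. No pair of replicates agreed within counting noise (chi-square per degree of freedom 8.95 to 75.9).

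The analysis ran in edgeR 4.0.16 under R 4.3.3: filterByExpr (minimum count 10), TMM scaling, a quasi-likelihood fit (robust) on group alone, the F test (two-sided) and Benjamini-Hochberg adjustment over all 14235 tested genes, threshold 0.05. SE are the absolute log2 fold change over the square root of F. Alternatives used DESeq2 1.42.0, limma 3.58.1 (voom), other scalings and filters, a replicate block and left-out libraries. The fit was tested on simulated data. No set test was made. Exonic lengths, gene coordinates (mm10, whole genes, introns included) and overlaps of at least 50 exonic bases are from GENCODE M21, in which 36308 identifiers were found. Copies were sought with BLAST 2.17.0 (95% identity, 200 bases) in its transcripts. The members, lists and tests were chosen with earlier results of these data known. Genes were named by a rule: the called members, those with the smallest p up to 12, the catalytic subunits, the activators and called genes of the other lists. Psmd9, Psmd14, Nfyb, Nrf1 and other genes outside that rule were named after their values were seen.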

Additional observations from a re-analysis of the deposited data

Results flagged for a closer look

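In each group of 6 libraries the highest and lowest values of the members, the 3 immunoproteasome genes and the 3 sums were examined for a value far from the rest. Of 92 such groups 5 held one, and chance gives about 5% of groups. In PBS replicate 2 Psmc1 had 73.0 CPM, with the other PBS libraries from 85.3 to 87.6. Psmb4 had 78.8 CPM in the same library, with the others from 89.6 to 95.1. The summed CPM of the 20S core was 921 there, with the others from 1015 to 1046. In GH replicate 6 Psmc1 had 73.2 CPM, with the others from 76.8 to 78.8. In GH replicate 5 Psme3 had 37.6 CPM, with the others from 29.9 to 31.4. No explanation of these values was tested.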

How the results depend on the processing

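Of all tested genes 682 were called, against 1072 in DESeq2, 391 with a replicate block and 434 to 854 with 1 library left out (434 without GH replicate 2, 447 without GH replicate 1). Library totals alone gave 869 calls of 14235 tested genes. Leaving out PBS replicate 2 gave 706 of 14370, and leaving out PBS replicate 2 and GH replicate 6 together gave 818 of 14243. Of the calls 47.4% were higher in GH, and 24.3% with library totals alone. The 1 proteasome member called became 2 in DESeq2, 1 to 2 with 1 library left out (2 without PBS replicate 2), 2 without PBS replicate 2 and GH replicate 6 together, and 5 with library totals alone (Psma3 at -0.22, Psmc5 at -0.27, Psmd1 at -0.19, Psmd12 at -0.23, and Psmc6). Medians with 1 library left out ran from -0.10 to -0.05 for the 20S core and the activators and from -0.11 to -0.04 for the 19S cap. Median levels in PBS moved from 28.0 to 52.0 CPM per kilobase for the core and from 23.1 to 34.9 for the cap with the longest transcript as length. Same-numbered libraries of the 2 groups did not deviate together (correlations of -0.175 to 0.159, 1 of 6 best with its own number), so the replicate numbers were not taken as pairs. The replicate block left Psmc6, Psmb10, Nfe2l2 and Igtp called. Adding near-identical copies, and leaving out PBS replicate 2 with GH replicate 6, were alternatives chosen after seeing the data. Few counts and a wide spread between libraries limit Psma8, and Psmb11 had 0 counts.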
